A study of Mus musculus with 6 samples.

Results

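The 55 genes described here act in mitosis. They encode the cyclins, kinases and phosphatases of mitotic entry, the spindle checkpoint, kinetochore and chromosomal passenger proteins, kinesins, other spindle proteins, condensin, the anaphase machinery and proteins of cytokinesis. They were listed by name, and all 55 were among the 19275 genes with reads. Of these, 54 are autosomal and belong to the 13768 autosomal genes that were tested, those whose mean reached 10 normalized counts. The remaining one, *Kif4*, is X-linked and is given apart.

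RNA-Seq of total RNA compared 3 libraries of primary mouse embryonic fibroblasts (MEFs) from WT embryos with 3 libraries of primary MEFs from *Anp32e* null (*Anp32e*-/-) embryos. Both were grown in DMEM with 10% serum, used at a passage number below 8 and plated 1 day before RNA was isolated. ANP32E is a chaperone that takes the histone variant H2A.Z out of chromatin, and the comparison asks how expression differs without it. The study calls its replicates in cell culture biological but does not say whether those of a genotype came from separate embryos or lines, so the p-values measure the spread between these libraries. The processed table holds 1 mean over all 6 libraries, 1 log2 fold change (log2FC) of null over WT and 1 standard error (SE) per transcript. Values per library, total counts and depth are therefore unknown. Group means given below follow from the listed mean and log2FC, are in normalized counts, and are approximate with no error of their own. A gene is called increased or decreased at an adjusted p under 0.05 in the authors' DESeq2 Wald test (two-sided, n = 3 and n = 3), and for each gene the values are those of its most abundant transcript.

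Mitosis begins when cyclin B with CDK1 drives chromosome condensation and spindle assembly. Kinetochores then bind the spindle, and the checkpoint holds the cell until every chromosome is attached. The anaphase-promoting complex (APC/C) next destroys securin and cyclin B, separase cuts cohesin, and the cell divides. Most mitotic genes are transcribed late in the cell cycle through promoters that carry CCAAT boxes and a cell cycle genes homology region (CHR), the binding sites of NF-Y and of the DREAM and MuvB complexes, and fibroblasts in culture express them mainly while they cycle.

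In the series as a whole, the targeted gene, *Anp32e* (chr3:95929245-95947387, GRCm38), had a computed mean of 3259 in WT and of 1121 in null MEFs (normalized counts, log2FC −1.54, SE 0.0935, adjusted p = 1.76e-58). The libraries also differed in sex chromosome genes. *Xist* had a computed mean of 5111 in WT and lay at the floor of 3 counts in null libraries, at least 1704-fold lower. Fibroblast markers summed to 388546 computed normalized counts in WT and 425113 in null libraries (7 of 10 increased, *Pdgfra* decreased, *Lum* at the floor in both). *Vim*, which was not called, makes up most of these sums. They hide larger differences, such as *Col3a1* from 3173 to 9988 and *Dcn* from 12.7 to 275. Mesothelial markers summed to 9724 and 11971 (6 of 8 increased, 1 decreased), with *Wt1* and *Lrrn4* at the floor in WT. The decreased one, *Krt19* (9129 in WT and 5671 in null), makes up most of the WT sum, which hides larger differences. *Upk1b* went from 3.47 to 1835, *Upk3b* from 5.04 to 1205, *Wt1* from the floor to 600 and *Krt18* from 280 to 1931. The sums were 9.92 and 140 for 4 epithelial markers (*Epcam*, *Krt5* and *Krt14* at the floor in WT), of which *Cdh1* was increased, from 5.98 to 128. They were 3151 and 2849 for 4 endothelial markers, nearly all from *Kdr*, and 343 and 258 for 4 macrophage ones. Of the macrophage markers *Cd68* was decreased (311 to 203) and *Csf1r* increased (26.0 to 54.1). The sums were 63.0 and 57.3 for 2 muscle markers with reads and 13.5 and 19.4 for 3 neural crest ones. The part of these differences in the results below was not tested.

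More of the mitotic genes were lower in *Anp32e* null MEFs than higher. Among the 54 autosomal ones, 20 were decreased (37.0%) and 7 increased (13.0%), beside 16.8% decreased and 19.8% increased of all genes tested. The mitotic genes are well expressed, with means from 719 (*Kif18a*) to 20152 normalized counts (*Anln*), so genes with means of 500 or more are the closer background. Of those 8720 genes, 16.1% were decreased and 22.2% increased. The differences were small: 39 of the 54 had a negative log2FC and 15 a positive one, the median was −0.13 (quartiles −0.33 and 0.04), and the median over all genes tested was −0.0024 (quartiles −0.25 and 0.27). Past an absolute log2FC of 0.5, 5 genes were decreased (9.26%) and 0 increased, as the highest log2FC was 0.45, beside 9.49% and 9.85% of all genes tested and 5.5% and 7.22% of those with means of 500 or more. The share past −0.5 is thus near that of all genes and above that of genes with means of 500 or more, and rests on 5 genes. Without the adjustment for multiple tests, 31 of the 54 had a p under 0.05, beside 45% of all genes tested and 46.9% of those with means of 500 or more.

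**Figure D1:**
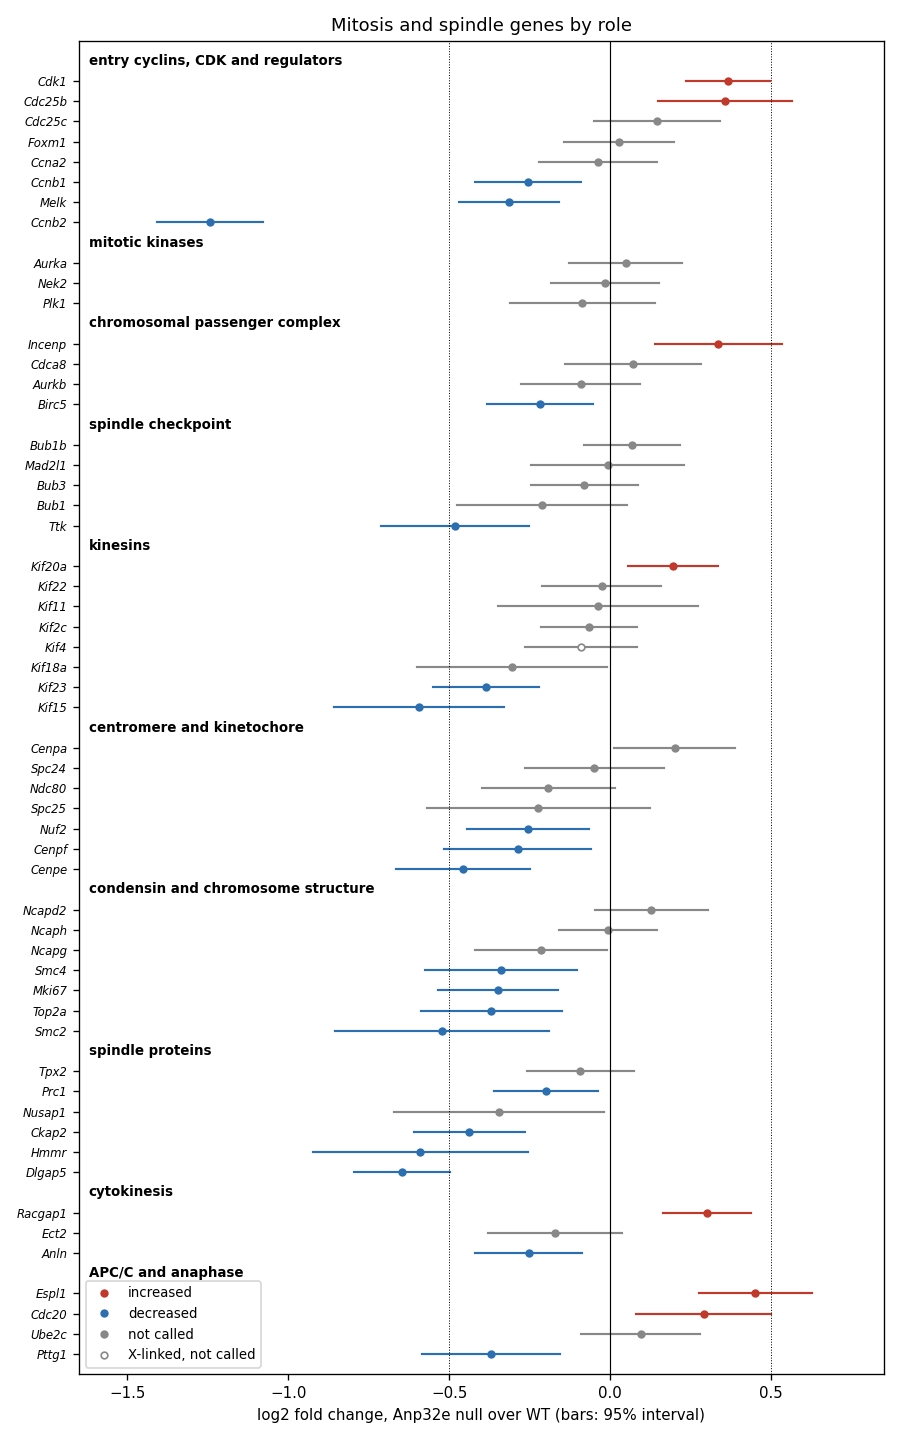
Log2 fold change of *Anp32e* null over WT for each mitotic gene, by role and ordered by value. Points are the listed log2FC and bars its 95% interval, red for increased, blue for decreased and grey for genes not called, with dotted lines at an absolute log2FC of 0.5. The decrease of *Ccnb2* stands alone at −1.24, and each of the other genes lies between −0.65 and 0.45.

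The precision of these values is that of the listed SE, which had a median of 0.0956 (0.0666 to 0.177) over the 54 genes and 0.108 over all genes with means of 500 or more. The 95% interval lay within a log2FC of −1 to 1, a change below 2-fold either way, for 53 of the 54 genes, the exception being *Ccnb2*. It lay within −0.5 to 0.5 for 33, including 24 of the 27 that were not called. In bulk RNA, fewer cells in G2 and mitosis and less of a transcript per cell cannot be told apart.

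Of the 8 genes of mitotic entry, 3 were decreased and 2 increased, and their median log2FC was −0.01. *Ccnb2*, which encodes cyclin B2, went from a computed 4838 normalized counts in WT to 2044 in null MEFs. Its log2FC was −1.24 (95% interval −1.41 to −1.08, adjusted p = 2.33e-47), 2.37-fold lower in the null, the largest absolute log2FC of the 55 genes. *Ccnb1*, the other B-type cyclin of somatic cells, went from 6439 to 5395 (log2FC −0.26, interval −0.42 to −0.09, adjusted p = 0.00953). The intervals of both cyclins do not overlap, and the difference between the genes was not tested further. *Ccna2*, the A-type cyclin of S and G2 phase, was not called, with 12450.2 and 12126 (log2FC −0.04, interval −0.22 to 0.14).

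*Cdk1*, the partner kinase of these cyclins, was increased, from 17302 to 22313 normalized counts (log2FC 0.37, SE 0.0666, adjusted p = 4.41e-07). *Cdc25b*, a phosphatase that activates CDK1, was increased from 2860.2 to 3665 (log2FC 0.36, adjusted p = 0.0036). The related *Cdc25c* was not called (log2FC 0.14, interval −0.05 to 0.34). The catalytic kinase and 1 of its activators were thus higher in the null and both B-type cyclins lower. *Foxm1*, a transcription factor of G2 genes, was not called, with 5205 and 5306 (log2FC 0.03, interval −0.14 to 0.20). *Melk*, a kinase expressed in dividing cells, was decreased from 4114 to 3312 (log2FC −0.31, adjusted p = 0.000504).

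To show what these genes share upstream, their promoters were read from RefSeq (GRCm38.p6), from 250 bases before to 50 after the start. The table held 48 promoters of 45 of the 55 genes. It held none for *Ccna2*, *Aurkb*, *Kif20a*, *Spc24*, *Incenp*, *Tpx2*, *Cdc25c*, *Foxm1*, *Dlgap5* and *Smc4*. The 4 printed are those of the largest decreases, *Ccnb2* and *Kif15* (a kinesin), and of the largest increases, *Espl1* (separase) and *Cdk1*, among genes with an entry. Capitals mark CHR motifs (TTTGAA or TTCGAA) and CCAAT boxes, each on either strand (on the opposite one the first CHR form reads TTCAAA and a CCAAT box ATTGG). Each sequence is 300 bases and runs 5′ to 3′ on the strand of its gene.
Ccnb2 (chr9:70421505-70421804, minus strand): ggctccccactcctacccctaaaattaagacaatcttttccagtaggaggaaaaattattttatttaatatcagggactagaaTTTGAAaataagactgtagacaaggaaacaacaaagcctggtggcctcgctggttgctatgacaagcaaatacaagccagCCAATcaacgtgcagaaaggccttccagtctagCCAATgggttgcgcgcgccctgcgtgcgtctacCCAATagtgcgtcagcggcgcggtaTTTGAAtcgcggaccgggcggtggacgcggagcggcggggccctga
Kif15 (chr9:122950831-122951130, plus strand): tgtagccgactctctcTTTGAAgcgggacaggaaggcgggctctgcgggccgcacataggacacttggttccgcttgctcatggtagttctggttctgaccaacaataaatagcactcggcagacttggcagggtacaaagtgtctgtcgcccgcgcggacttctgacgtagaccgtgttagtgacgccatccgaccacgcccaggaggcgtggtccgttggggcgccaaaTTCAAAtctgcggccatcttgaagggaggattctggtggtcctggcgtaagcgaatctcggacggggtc
Espl1 (chr15:102296043-102296342, plus strand): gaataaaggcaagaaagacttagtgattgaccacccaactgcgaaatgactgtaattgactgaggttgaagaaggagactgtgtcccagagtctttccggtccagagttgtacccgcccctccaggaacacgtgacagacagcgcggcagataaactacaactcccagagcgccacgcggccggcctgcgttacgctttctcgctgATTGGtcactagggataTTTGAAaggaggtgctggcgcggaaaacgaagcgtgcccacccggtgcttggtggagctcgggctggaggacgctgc
Cdk1 (chr10:69352863-69353162, minus strand): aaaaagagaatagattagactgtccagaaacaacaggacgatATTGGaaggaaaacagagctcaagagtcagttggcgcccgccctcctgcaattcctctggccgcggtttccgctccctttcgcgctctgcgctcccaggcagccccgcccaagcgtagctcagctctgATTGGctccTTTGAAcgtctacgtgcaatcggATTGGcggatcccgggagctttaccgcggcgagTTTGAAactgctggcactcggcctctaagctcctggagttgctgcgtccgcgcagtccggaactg

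Counted from the start, *Ccnb2* has CHR letters at −167 and 5 and CCAAT boxes at −87, −54 and −21. *Cdk1* has CHR letters at −71 and −15 and CCAAT boxes at −208, −80 and −48. These 2 genes, called in opposite directions, both carry CHR and CCAAT letters. Whether the motifs go with direction was not tested. *Espl1* has 1 of each, at −27 and −44, and *Kif15* has CHR letters at −234 and −19 and no CCAAT letters in this window. Of all 48 promoters, 37 (77.1%) held a CHR motif, beside 13.8% of the 13617 promoters of autosomal genes tested and 19.2% of all 32851 promoters in the table. A CCAAT box stood in 36 (75%, beside 37.6% and 37.4%), at least 2 stood in 23 (47.9%, beside 13.9% and 11.7%), and both motifs together in 33 (68.8%, beside 5.71% and 7.52%). The letters TATAAA, of the TATA box, stood in 1 promoter (2.08%, beside 7.34% and 13.6%). The letters of these motifs do not contain each other.

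CHR matches lay close to the start. They began within the 50 bases after it in 20 of the 48 promoters (41.7%) and within the 50 bases before it in 12 (25%), beside 1.69% and 1.81% of the promoters of genes tested. CCAAT boxes lay mainly upstream of them, in the 50 bases before the start in 23 promoters (47.9%) and in the 50 bases before those in 19 (39.6%), beside 10.8% and 15.04%. By call, CHR and CCAAT letters each stood in 5 of 5 promoters of increased genes and 13 of 19 of decreased ones. Among genes not called, CHR letters stood in 19 of 24 promoters and CCAAT letters in 18. These are matches of letters, some of the 48 promoters belong to the same gene, and binding was not measured here.

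**Figure D2:**
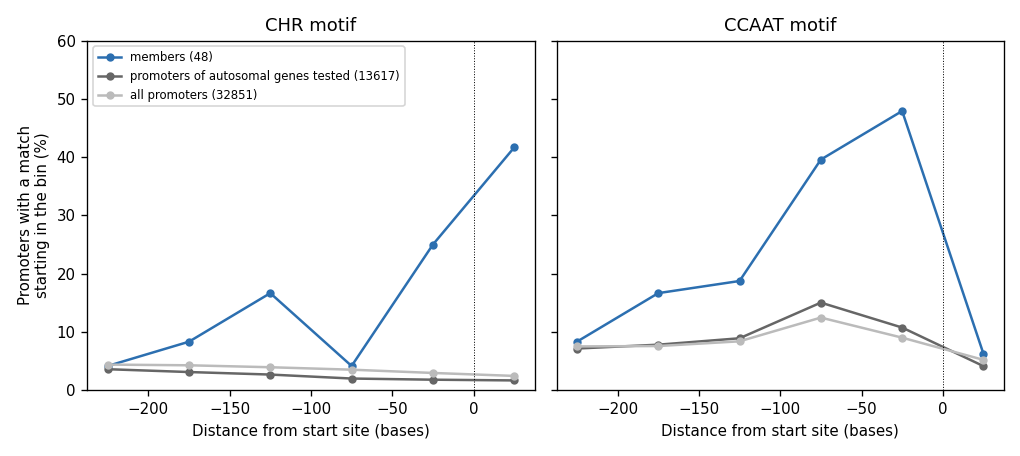
Share of promoters with a CHR motif (left) or a CCAAT box (right) that begins in each stretch of 50 bases, against distance from the start in bases, for the mitotic genes (48 promoters, blue), the autosomal genes tested (dark grey) and all promoters (light grey). CHR matches of the mitotic genes peak in the 50 bases after the start at 41.7%, and CCAAT matches in the 50 bases before it at 47.9%.

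The 3 kinases *Plk1*, *Aurka* and *Nek2*, which drive centrosome maturation, spindle assembly and centrosome separation, were not called. *Plk1* had computed means of 6444 and 6069 normalized counts (log2FC −0.09, interval −0.31 to 0.14), *Aurka* 9674 and 10002 (log2FC 0.05, interval −0.13 to 0.22) and *Nek2* 3765 and 3724 (log2FC −0.02, interval −0.18 to 0.15). Each of these intervals lay within −0.5 to 0.5.

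In the chromosomal passenger complex, which corrects faulty attachments, 1 of 4 genes was increased and 1 decreased. *Incenp*, the scaffold, went from 4529 to 5717 (log2FC 0.34, SE 0.1003, adjusted p = 0.00386). *Birc5*, which encodes survivin, went from 8180 to 7037 (log2FC −0.22, SE 0.0841, adjusted p = 0.033). The kinase of the complex, *Aurkb*, was not called (log2FC −0.09, interval −0.28 to 0.09), nor was *Cdca8*, which encodes borealin (log2FC 0.07, interval −0.14 to 0.28).

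Of 5 genes of the spindle checkpoint, 1 was decreased. This was *Ttk*, the kinase MPS1 that starts the checkpoint signal, with computed means of 1198 and 858 (log2FC −0.48, SE 0.117, adjusted p = 0.000256). The log2FC of the others lay from −0.21 (*Bub1*, interval −0.48 to 0.05) to 0.07 (*Bub1b*), and *Bub3* and *Mad2l1*, which join the inhibitor of the APC/C, had −0.08 and −0.01.

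Genes of the centromere and kinetochore had a median log2FC of −0.22, with 3 of 7 decreased and 0 increased. *Cenpe*, the kinesin that carries chromosomes to the metaphase plate, went from 4737 to 3451 (log2FC −0.46, SE 0.106, adjusted p = 0.000115). *Cenpf*, a large protein of the outer kinetochore, went from 2595 to 2126 (log2FC −0.29, adjusted p = 0.0433). The NDC80 complex, which grips the microtubule, has 4 subunits. Of these *Nuf2* was decreased, from 2848 to 2385 (log2FC −0.26, adjusted p = 0.0285), and *Ndc80* (log2FC −0.19, interval −0.40 to 0.01), *Spc25* (log2FC −0.22, SE 0.177) and *Spc24* (log2FC −0.05) were not called. *Cenpa*, the centromeric histone H3, had 4148 and 4768 and was not called (log2FC 0.20, interval 0.01 to 0.39, adjusted p = 0.0964).

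Of 7 autosomal kinesins, 2 were decreased and 1 increased. *Kif15*, which helps hold the spindle bipolar, went from 1844 to 1222 (log2FC −0.59, SE 0.135, adjusted p = 8.01e-05). *Kif11*, the main kinesin of spindle bipolarity, had 4124 and 4022 and was not called (log2FC −0.04, interval −0.35 to 0.27). *Kif23*, a kinesin of the central spindle, was decreased from 5675 to 4346 (log2FC −0.39, adjusted p = 3.9e-05). *Kif20a*, which brings the passenger complex to the central spindle, was increased from 17123 to 19602 (log2FC 0.20, adjusted p = 0.0233). The microtubule depolymerase *Kif2c* (log2FC −0.07), the chromokinesin *Kif22* (log2FC −0.03) and *Kif18a*, which restrains chromosome oscillation (log2FC −0.31, interval −0.60 to −0.01, adjusted p = 0.109), were not called. The X-linked chromokinesin *Kif4* had 6280.4 and 5894 and was not called (log2FC −0.09, interval −0.27 to 0.08, adjusted p = 0.472).

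All 6 spindle proteins had a negative log2FC, with a median of −0.39, and 4 of them were decreased. *Dlgap5*, a microtubule binder also called HURP, had the largest decrease after *Ccnb2*, from 6049 to 3865 (log2FC −0.65, SE 0.0768, adjusted p = 1.31e-15). *Hmmr*, a protein of the spindle pole, went from 3194 to 2122 (log2FC −0.59, SE 0.170, adjusted p = 0.0027). *Ckap2*, which stabilises spindle microtubules, went from 4964 to 3667 (log2FC −0.44, adjusted p = 5.56e-06). *Prc1*, which bundles the microtubules of the central spindle, was decreased less, from 14010.1 to 12207 (log2FC −0.20, adjusted p = 0.0485). *Nusap1*, another binder of spindle microtubules, had a value in that range with a wider interval and was not called (log2FC −0.34, interval −0.67 to −0.02, adjusted p = 0.102). *Tpx2*, which activates Aurora A on the spindle, had 17346 and 16265.0 (log2FC −0.09, interval −0.26 to 0.07).

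Of 4 genes of the APC/C and of anaphase, 2 were increased and 1 decreased, with a median log2FC of 0.19. *Espl1*, the protease separase, went from 3003 to 4106 (log2FC 0.45, SE 0.0897, adjusted p = 4.78e-06), the largest increase among the 55 genes. *Cdc20*, which brings substrates to the APC/C, went from 14222 to 17398 (log2FC 0.29, adjusted p = 0.0233). *Pttg1*, which encodes the separase inhibitor securin, was decreased from 1259 to 975 (log2FC −0.37, SE 0.110, adjusted p = 0.00369). *Ube2c*, the ubiquitin-conjugating enzyme of the APC/C, was not called (log2FC 0.09, interval −0.09 to 0.28).

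Cytokinesis genes went both ways. *Racgap1*, which encodes the partner of the *Kif23* product in the centralspindlin complex, was increased from 10416 to 12842 (log2FC 0.30, SE 0.0696, adjusted p = 0.000108). *Anln*, the contractile ring protein anillin, was decreased from 21917 to 18386 (log2FC −0.25, adjusted p = 0.0114). *Ect2*, the exchange factor that activates RhoA at the cell equator, was not called (log2FC −0.17, interval −0.38 to 0.04).

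Of the 7 genes of condensin and chromosome structure, 4 were decreased and 0 increased, with a median of −0.34. Both ATPases of condensin were lower. *Smc2* went from 6584 to 4586 (log2FC −0.52, SE 0.170, adjusted p = 0.00898) and *Smc4* from 7160 to 5660.3 (log2FC −0.34, SE 0.121, adjusted p = 0.0186). The subunits particular to condensin I were not called. Their log2FC was 0.13 for *Ncapd2* (interval −0.05 to 0.30), −0.22 for *Ncapg* (interval −0.42 to −0.01, adjusted p = 0.106) and −0.01 for *Ncaph* (interval −0.16 to 0.14). Whether the subunits differ from the ATPases was not tested. *Top2a*, the topoisomerase that untangles sister chromatids, was decreased from 22373 to 17325 (log2FC −0.37, adjusted p = 0.00469). *Mki67*, which coats mitotic chromosomes and marks cycling cells, was decreased from 13644 to 10711 (log2FC −0.35, adjusted p = 0.00136).

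Levels between genes were compared per kilobase of transcript, for the 52 genes with a known transcript length. The highest mean levels over both groups were those of *Ube2c*, with 10749 normalized counts per kb, *Cdc20* (8818), *Kif20a* (5837), *Aurka* (5164) and *Bub3* (5033). The lowest were *Cenpf* (212), *Kif18a* (213), *Kif15* (316) and *Ttk* (358). Of the 5 highest, 2 were increased and 3 not called, and of the 4 lowest, 3 were decreased and 1 was not called. Of the 54 genes 13.0% were increased and 37.0% decreased, and of all genes tested 19.8% and 16.8%. *Kif15* and *Ttk* lie on chromosome 9, where 34.8% of genes were decreased, and *Kif20a* on chromosome 18, where 45.1% were increased. These are few genes, and whether calls go with level was not tested.

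Some counts may be shared with other genes. In GENCODE, exons of 18 of the 55 genes overlap those of another gene, on the opposite strand for 15 of them. Whether the counting used strand is not stated, so reads of such a pair may not have been told apart. The longest overlap was 977 bases, between *Kif20a* and *Cdc23*, and *Prc1* shared 670 bases with *Rccd1*, while *Ccna2* shared 428 with *Exosc9*. *Ccnb1*, *Ccnb2*, *Kif4* and *Kif22* have a named pseudogene elsewhere in the genome, so their counts are uncertain. For 23 genes with more than 1 transcript with reads, the transcripts had the same call, and the widest range of their log2FC was 0.03 (*Spc25*). For some, such as *Bub1* and *Smc4*, the values of the transcripts were identical. Transcripts of the same gene may thus share reads, and their agreement is not an independent check.

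The calls differed with the chromosome a gene lies on. The median log2FC of all genes of a chromosome ranged from −0.35 (chromosome 14) to 0.34 (chromosome 19). On the 4 chromosomes with a median under −0.1 (8, 9, 11 and 14), 29.8% of 3204 genes were decreased and 6.93% increased. Of the 13 autosomal mitotic genes there, 11 were decreased and 0 increased, with a median log2FC of −0.39. On the 6 chromosomes with a median over 0.1 (10, 15, 16, 17, 18 and 19), 44.7% of 3347 genes were increased and 6.18% decreased, and of the 8 mitotic genes there 5 were increased and 0 decreased. On the 9 other autosomes, 15.9% of 7217 genes were decreased and 13.9% increased, and of the 33 mitotic genes 9 were decreased and 2 increased, with a median of −0.09.

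**Figure D3:**
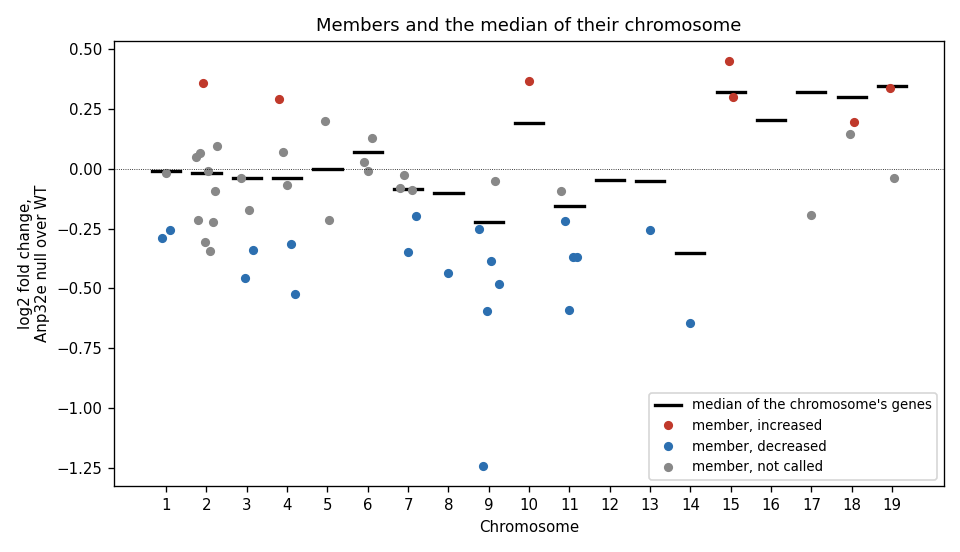
Log2 fold change of *Anp32e* null over WT for the 54 autosomal mitotic genes (points, red for increased, blue for decreased, grey for not called), by chromosome, with the median of all genes tested on that chromosome as a black bar. On chromosomes 9, 11 and 14 the bars lie at −0.22, −0.16 and −0.35 and most points lie below them. Of the 7 increased genes, 5 lie on chromosomes 10, 15, 18 and 19, whose bars lie between 0.19 and 0.34.

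With the median of each chromosome taken out and the Wald test recomputed, 12 of the 54 genes were decreased (22.2%) and 3 increased (5.56%), beside 13.4% and 14.1% of all genes tested. The median log2FC of the 54 genes went from −0.13 to −0.11. Of the 20 decreases, 9 lost their call: *Ccnb1*, *Ttk*, *Kif23*, *Cenpf*, *Birc5*, *Top2a*, *Prc1*, *Anln* and *Pttg1*. The log2FC of *Cenpf* hardly moved, from −0.29 to −0.28 (adjusted p = 0.059), and that of *Ccnb1* went from −0.26 to −0.21 (adjusted p = 0.051), so these lost their call near the threshold. Those of *Anln*, *Birc5* and *Prc1* went to −0.03, −0.06 and −0.11 and those of *Kif23*, *Top2a*, *Pttg1* and *Ttk* to −0.16, −0.21, −0.21 and −0.26. Of the 7 increases, 4 did: *Kif20a*, *Incenp*, *Espl1* and *Racgap1*. *Cdk1* (0.18, adjusted p = 0.0328), *Cdc25b* (0.38, adjusted p = 0.00237) and *Cdc20* (0.33, adjusted p = 0.0109) were still increased. *Ccnb2* had a log2FC of −1.02 (adjusted p = 3.18e-32), *Smc2* of −0.49 (adjusted p = 0.0192), *Hmmr* of −0.43 (adjusted p = 0.0415), *Cenpe* of −0.42 (adjusted p = 0.000569), *Kif15* of −0.37 (adjusted p = 0.024) and *Dlgap5* of −0.30 (adjusted p = 0.00083). *Ndc80*, on chromosome 17, became a decrease (−0.51, adjusted p = 1.22e-05).

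Among partners that moved in opposite directions, this step had different outcomes. For separase and securin, the log2FC became 0.13 for *Espl1* on chromosome 15 and −0.21 for *Pttg1* on chromosome 11, and neither was called (adjusted p = 0.306 and 0.143). For centralspindlin, it became −0.020 for *Racgap1* on chromosome 15 and −0.16 for *Kif23* on chromosome 9 (adjusted p = 0.876 and 0.14). For the passenger complex, it became −0.0084 for *Incenp* on chromosome 19 and −0.06 for *Birc5* on chromosome 11 (adjusted p = 0.969 and 0.655). *Cdk1* on chromosome 10 and *Ccnb2* on chromosome 9 were still called in opposite directions, although the call of *Cdk1* was lost when its neighbours' median was taken out (log2FC 0.12, adjusted p = 0.196).

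The genes around each mitotic gene were examined in the same way. The median log2FC of the other genes within 5 Mb had the sign of the mitotic gene for 40 of the 54 (74.1%), beside 66.9% for all genes tested and 71.1% for those with means of 500 or more. It lay inside the 95% interval of the gene for 34 of the 54 (63.0%), beside 63.6% and 65.0%, so neither share stands far from its background. Near *Ttk* (−0.48) the median was −0.45 over 37 genes, near *Espl1* (0.45) 0.36 over 122 and near *Racgap1* (0.30) 0.35 over 132. Near *Dlgap5* (−0.65) it was −0.39 over 54 genes and near *Ccnb2* (−1.24) −0.22 over 65, both above the interval of the gene. *Cdc25b* (0.36) and *Cdc20* (0.29) lay above neighbours with medians of 0.08 and −0.02.

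With this local median taken out in place of that of the chromosome, 8 of the 54 genes were decreased (14.8%) and 2 increased (3.70%). For all genes tested under the same centring the shares were 13.7% and 13.9%, and for those with means of 500 or more 11.8% and 13.7%. The share decreased was thus near the background here, and the share increased lay below it. The median log2FC of the 54 genes was −0.10 with this local median taken out. The decreases were *Ccnb2* (−1.03, adjusted p = 1.83e-32), *Ndc80* (−0.49), *Kif15* (−0.46), *Cenpe* (−0.38), *Nuf2* (−0.33), *Cenpf* (−0.31), *Dlgap5* (−0.26) and *Melk* (−0.21). The increases were *Cdc20* (0.31, adjusted p = 0.0176) and *Cdc25b* (0.28, adjusted p = 0.0344).

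Other genes of mitosis were taken from lists by function, without the 55. Of 126 tested, 27 were decreased (21.4%) and 12 increased (9.52%), with a median log2FC of −0.10. With chromosome medians taken out, 14 were decreased (11.1%) and 5 increased (3.97%), beside 13.4% and 14.1% of all genes tested. The share decreased thus no longer exceeded the background, the share increased still lay below it, and the median log2FC was still −0.10. Centrosome and spindle pole genes had 5 of 24 decreased (20.8%) and 0 increased (median −0.20), beside 16.8% and 19.8% of all genes tested. Other genes of the kinetochore had 9 of 32 decreased (28.1%) and 1 increased (3.125%, median −0.15). With chromosome medians taken out, 3 of the 24 (12.5%) and 3 of the 32 (9.38%) were decreased, neither share above the 13.4% of all genes tested. Their median log2FC was then −0.20 and −0.16. *Cenpt*, of the inner kinetochore, was decreased (log2FC −0.61, adjusted p = 1.23e-07), as was *Zwilch*, of the complex that recruits dynein (log2FC −0.61, adjusted p = 0.000169), and *Cenpm* was the increase (log2FC 0.73, adjusted p = 7.25e-06). *Cenpj*, which elongates centrioles, had a log2FC of −0.84 (adjusted p = 4.29e-05). These 4 genes were still called with chromosome medians taken out.

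APC/C subunits and regulators had 4 of 18 decreased and 4 increased (22.2% each), beside 16.8% and 19.8% of all genes tested. Its subunit *Cdc27* was decreased (log2FC −0.54, adjusted p = 0.00436) and its activator *Fzr1* increased (log2FC 0.31, adjusted p = 0.0152), and both calls were lost with chromosome medians taken out (−0.39 and 0.12, adjusted p = 0.063 and 0.452). Of 14 cohesin and condensin II genes, 2 were decreased (14.3%) and 3 increased (21.4%). *Esco2*, which acetylates cohesin, fell from 695 to 344 normalized counts (log2FC −1.02, adjusted p = 1.94e-09), and *Ncaph2*, of condensin II, rose (log2FC 0.51, adjusted p = 2.23e-05). With chromosome medians taken out, *Esco2* was still called (−0.67) and *Ncaph2* was not (0.19, adjusted p = 0.198). Further regulators of entry had 3 of 11 decreased and 3 increased (27.3% each). *Mastl*, the Greatwall kinase that keeps CDK1 substrates phosphorylated, was decreased (log2FC −0.73, adjusted p = 1.35e-05), and *Pkmyt1*, which inhibits CDK1, was increased (log2FC 0.57, adjusted p = 2.57e-05). That step left *Mastl* at −0.71 and called and *Pkmyt1* at 0.25 and not called (adjusted p = 0.116). Other kinesins and cytokinesis genes had 3 of 16 decreased (18.75%) and 1 increased (6.25%). The increase was *Troap* (log2FC 0.42, adjusted p = 0.0001), whose call was lost in the same way (0.10, adjusted p = 0.48).

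The transcription factors and DREAM and MuvB subunits that act on G2 promoters had 1 of 12 genes decreased (8.33%) and 0 increased, with a median log2FC of 0.01. The decrease was *Tfdp1*, a partner of E2F (log2FC −0.24, adjusted p = 0.00867), which was not called with chromosome medians taken out (−0.13, adjusted p = 0.195). Genes of S phase were set beside the mitotic ones as the other large group that cycling cells express. Of 49 tested, 9 were increased (18.4%) and 5 decreased (10.2%), beside 19.8% and 16.8% of all genes tested. Among the called genes 0 lay past an absolute log2FC of 0.5. The median log2FC was −0.01, beside −0.13 for the mitotic genes. *Fen1*, a nuclease of lagging strand synthesis, had a log2FC of 0.44 (adjusted p = 5.49e-05), and *Rfc1*, of the clamp loader, −0.30 (adjusted p = 0.0187). With chromosome medians taken out, 6 S phase genes were increased (12.2%) and 3 decreased (6.12%), beside 14.1% and 13.4% of all genes tested. *Rfc1* was still called and *Fen1* was not (0.10, adjusted p = 0.501). Whether the lists differ from each other was not tested.

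**Figure D4:**
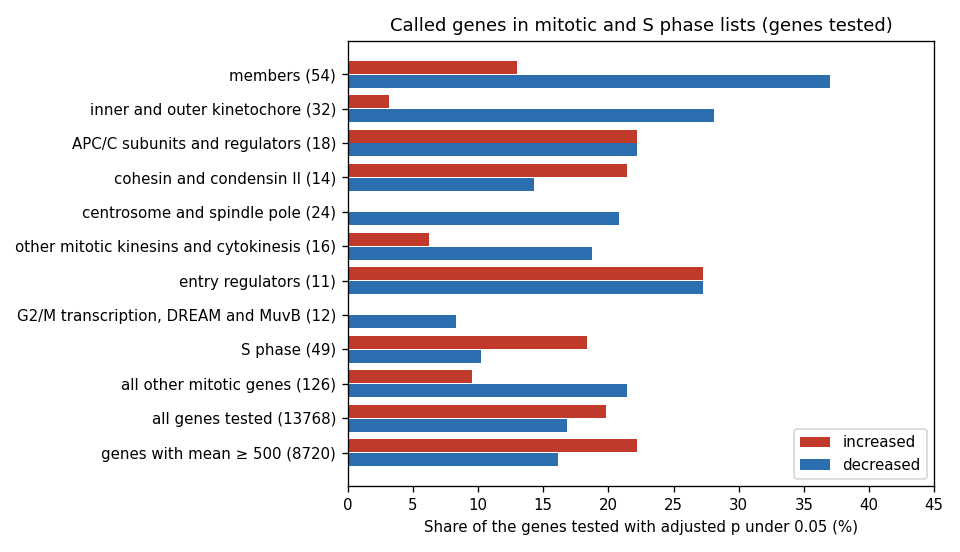
Share of tested genes that were increased (red) or decreased (blue) at an adjusted p under 0.05, in percent, for the 54 autosomal mitotic genes ("members"), the other mitotic lists, S phase genes and both backgrounds, with the number tested in parentheses. The 54 genes have 37.0% decreased and 13.0% increased, S phase genes 10.2% and 18.4%, and all genes tested 16.8% and 19.8%.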

How the data were processed

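RNA-Seq of 3 WT and 3 *Anp32e* null MEF libraries (TruSeq stranded total RNA) was read from 1 deposited table of 42361 RefSeq transcripts, the comparison that the rule for these genes names. It has no values per library. RNA-STAR (mm10) was the aligner of the authors, who used Subread featureCounts for counting and ran DESeq2 at default settings (strand setting of the counting not given in the sources used here). The deposited signal is the mean over 6 libraries of counts divided by size factors. The log2 fold changes and their standard errors, the score (Wald statistic), the p-value and the Benjamini-Hochberg adjusted p-value are those the authors deposited. The statistic equals the ratio of the log2 fold change to its error within 1.3e-13.

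Counts per library had been planned for but the table has none, so no model was fitted, and no depth, replicate SD or counting interval can be given. Transcripts were matched to genes through RefSeq (GRCm38.p6): 42203 matched and 158 did not, and 7019 had no reads. Group means are the WT and null values that give the listed mean and fold change. A group mean at or under 3 counts counts as a floor. Intervals are the log2FC with the normal 95% limits of its error. Lengths and exon overlaps came from GENCODE M21, and chromosome X and Y genes were left out, as in the study.

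Any of the 55 genes could be named, and of other mitotic lists up to 2 increased and 2 decreased genes with the largest absolute log2FC. Marker genes and genes with overlapping exons were named after their values were seen. The genes and lists were chosen with earlier results of these data known. Alternatives were other minimum means, thresholds, transcripts, adjustments and centrings, a Wald test against a log2FC of 0.5, and, added after seeing the data, centring on neighbours within 5 Mb, leaving out chromosome 9 and a background of means of at least 500. Scripts were tested on simulated data. Python 3.11.15 was used with numpy 2.4.6, pandas 2.3.3, scipy 1.17.1 and matplotlib 3.10.9.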

Additional observations from a re-analysis of the deposited data

Results flagged for a closer look

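Signal stood outside the autosomal comparison in a Y-linked gene. *Ddx3y* reached 1103 normalized counts (computed mean) in *Anp32e* null libraries and lay at the floor of 3 counts in WT, at least 368-fold lower than in the null, while *Xist* lay at the floor in null libraries. What part the sex chromosomes of the MEFs have in the values of the mitotic genes was not tested.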

How the results depend on the processing

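With the median of each chromosome taken out, 3 mitotic genes were increased in place of 7, 12 decreased in place of 20, and 2 decreased past 0.5 in place of 5. Those 2 were *Ccnb2* (−1.02) and *Ndc80* (−0.51), and *Ndc80* was not among the 5. With the median of neighbours within 5 Mb taken out, chosen after seeing the data, the counts were 2, 8 and 1. A Wald test against an absolute log2FC of 0.5 called 1 decrease (*Ccnb2*), and 3 decreases past 0.5 were left without the genes of chromosome 9, also chosen after seeing the data. Under the other alternatives each count stayed within 1.5 times its value.

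With chromosome medians taken out, the log2FC of 11 genes changed sign. None of the 11 was called after it, and 3 had been called before: *Kif20a* (−0.11), *Incenp* (−0.0084) and *Racgap1* (−0.020). The others were *Ccna2* (0.00066), *Aurkb* (0.065), *Bub3* (0.0042), *Kif22* (0.058), *Spc24* (0.17), *Cdc25c* (−0.16), *Foxm1* (−0.043) and *Ncaph* (0.012). Of the other 43 genes, 32 kept direction and side of the threshold, 10 lost their call and 1 gained one. Another transcript (23 genes) and the median of all genes taken out (54 genes) changed no direction or call. Transcripts of the same gene may share reads, so the use of another transcript is not an independent check.

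Leaving out single libraries was not run, since the table has no values per library. No paired analysis was possible because of the same limit. Depth is unknown, and the listed errors alone limit what can be seen.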
